A study of Rattus norvegicus with 8 samples.

Results

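Clusters of small hepatocyte-like progenitor cells (SHPCs) from control livers were compared with mature hepatocytes (MHs) which the labels place in control livers too. The members were chosen by sample label, and they are 5 of the 8 samples of the series, with 3 samples of control SHPC clusters and 2 samples of MHs. The other 3 samples are SHPC clusters from livers transplanted with bone marrow mesenchymal cells (BM-MCs). They were used here only for the estimate of the spread between arrays and for the choice of probes. This choice covers the probes bright enough to test and the probe that stands for each gene. All samples came from F344 rats. The labels give the DPPIV+ strain, whereas the methods describe female recipients of the DPPIV- strain (DPPIV is dipeptidyl peptidase IV, a cell surface enzyme by which donor and recipient cells can be told apart). According to the methods, recipients were given retrorsine and then partial hepatectomy (the Ret/PH model), so both groups share the drug and the operation, and the control livers received no transplanted cells. Clusters were recognised by their appearance in frozen sections stained with hematoxylin and were cut out with an ultraviolet laser, with no marker used to select them. Any other cell inside the outline was therefore captured too. The methods state when recipient livers were harvested for histology but repeat no time for the microdissected samples, and no source used here ties a sample to an animal. The p-values thus rest on the variation of the captured samples, part of it possibly technical, and may be too small.

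Retrorsine is a plant alkaloid that liver cytochrome P450 enzymes turn into reactive pyrroles, which crosslink DNA, and hepatocytes exposed to it enlarge and fail to complete the cell cycle after partial hepatectomy. In such livers clusters of small hepatocyte-like cells expand and rebuild the parenchyma. Genes of mitosis are switched on together late in the cell cycle through short promoter elements, the CHR (cell cycle homology region), read by the MuvB complexes, and the CCAAT box, read by NF-Y. Mature hepatocytes also differ along the lobule. Cells near the portal vein make urea and glucose, whereas cells near the central vein receive Wnt signals, make glutamine and carry most drug-metabolising enzymes.

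Since genes of mitosis were the largest block of genes that differed, the promoters of 4 of the leading ones are shown first. Each is the run of 250 bases before the transcription start of the gene, on the coding strand, from RefSeq (rat assembly GRCr8). Capitals mark each TTTGAA (the form of the CHR searched here) and each CCAAT on either strand. A match describes the letters only. Mki67 lies on the minus strand at chr1:199952594-199952843, Cdk1 on the plus strand at chr20:19265043-19265292, Ccnb2 on the minus strand at chr8:79981659-79981908 and Top2a on the minus strand at chr10:84473094-84473343.
Mki67: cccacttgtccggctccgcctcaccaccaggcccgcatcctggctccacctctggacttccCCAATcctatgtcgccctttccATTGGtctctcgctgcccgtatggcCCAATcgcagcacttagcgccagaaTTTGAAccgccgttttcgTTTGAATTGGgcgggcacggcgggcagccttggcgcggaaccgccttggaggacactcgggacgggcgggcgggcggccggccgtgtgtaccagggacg
Cdk1: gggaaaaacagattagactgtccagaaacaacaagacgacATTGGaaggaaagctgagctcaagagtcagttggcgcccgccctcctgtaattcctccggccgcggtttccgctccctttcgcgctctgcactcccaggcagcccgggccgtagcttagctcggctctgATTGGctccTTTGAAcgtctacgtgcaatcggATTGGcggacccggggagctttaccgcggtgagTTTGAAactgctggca
Ccnb2: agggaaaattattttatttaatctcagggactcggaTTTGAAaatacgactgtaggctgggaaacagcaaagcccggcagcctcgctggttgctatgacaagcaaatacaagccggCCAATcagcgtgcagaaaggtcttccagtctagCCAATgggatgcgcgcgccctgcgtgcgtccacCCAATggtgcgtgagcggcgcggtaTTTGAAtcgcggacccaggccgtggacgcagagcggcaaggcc
Top2a: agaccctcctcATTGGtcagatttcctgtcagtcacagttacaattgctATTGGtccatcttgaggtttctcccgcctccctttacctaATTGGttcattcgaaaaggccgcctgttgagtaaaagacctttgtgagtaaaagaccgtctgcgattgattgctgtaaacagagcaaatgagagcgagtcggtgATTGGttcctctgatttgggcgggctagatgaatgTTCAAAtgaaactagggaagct

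The promoter of Mki67 holds 2 TTTGAA and 4 CCAAT, that of Cdk1 2 TTTGAA and 3 CCAAT, that of Ccnb2 2 TTTGAA and 3 CCAAT, and that of Top2a 1 TTTGAA and 4 CCAAT. In Ccnb2 the outer CCAAT boxes begin 134 and 68 bases before the start. These 4 were picked for holding both motifs, so the shares over whole lists are given beside them. A promoter was found for 53 of the 62 tested genes of the mitosis list, and 15 of these (28.3%) held TTTGAA together with at least 2 CCAAT, whereas 154 of 10389 tested genes with a promoter did (1.48%), and 1.57% of all 33469 promoters of the same length. TTTGAA alone was in 50.9% of the mitosis list, in 10.9% of tested genes and in 16.2% of all promoters. Among the 31 genes of the S phase list with a promoter, 2 held TTTGAA and none held it with at least 2 CCAAT, while 35.5% held at least 2 CCAAT against 12.2% of tested genes. Bub1b, a spindle checkpoint kinase, was also called but was not above background in MHs. It holds neither TTTGAA nor CCAAT in this window (plus strand, chr3:126016817-126017066) and is printed for contrast, although other forms of the CHR were not searched.
Bub1b: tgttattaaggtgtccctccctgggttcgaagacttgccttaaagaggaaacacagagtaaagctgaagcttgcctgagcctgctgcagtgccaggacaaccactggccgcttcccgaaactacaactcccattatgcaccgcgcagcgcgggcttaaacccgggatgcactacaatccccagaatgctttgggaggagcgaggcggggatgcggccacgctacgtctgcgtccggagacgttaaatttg

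The deposited values are processed intensities of 1-colour arrays. Each value below is a log2 signal from which its array's 75th percentile was subtracted, so that 0 is the level of a bright probe and a difference of 1 is 2-fold. Between 57.0% and 61.5% of spots were well above background on the 8 arrays, and no spot was saturated. Precision is limited by how few arrays there are. Across 22969 probes, the correlation was 0.987 between the MH samples, between 0.983 and 0.993 among control SHPC samples and between 0.970 and 0.980 between the groups, as a description of arrays that share most of their expressed genes. Control SHPC replicate 3 was the least like the other control SHPC samples and lay in another set of arrays on the slide than the other 4 samples.

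Both the samples labelled MHs and those labelled SHPCs carried the markers of hepatocytes. All 16 hepatocyte markers were well above background in both groups. Of these limma called none, where it called 1.22% of all genes, so this does not show equal levels. An unadjusted p under 0.05 from limma was given to 3 towards SHPCs (18.8%, against 7.72% of all genes) and 1 towards MHs (6.25%, against 12.5%). Alb, the main plasma protein, was at 7.01 and 6.91 in MHs and at 7.19, 6.90 and 7.22 in SHPCs. Hnf4a, a transcription factor of hepatocyte identity, was at 3.89 and 3.83 in MHs and at 3.66, 3.58 and 3.77 in SHPCs. Of the markers, Apoa2, an apolipoprotein, was at 7.60 and 6.90 in MHs and between 5.11 and 5.88 in SHPCs (difference -1.68, adjusted p = 0.145 from limma), and Tat, an enzyme of tyrosine breakdown, was at -0.53 and -0.51 in MHs and between 0.25 and 0.93 in SHPCs (difference 1.04, adjusted p = 0.179 from limma).

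Of 23111 probes tested, limma called 212 higher in control SHPCs (0.917%) and 50 higher in MHs (0.216%) at an adjusted p under 0.05. With 1 probe per gene, the brightest, 145 of 14536 genes were higher in SHPCs (0.998%) and 33 were higher in MHs (0.227%). For every called probe the groups did not overlap, which by itself was so for 16.9% of genes in the direction of SHPCs and 25.5% in that of MHs, and 205 and 37 of the called probes differed at least 2-fold. The median size of a called difference was 2.23 on the log2 scale where SHPCs were higher and 1.41 where MHs were higher. Below this threshold the balance was different. An unadjusted p under 0.05 was given to 7.72% of genes in the direction of SHPCs and to 12.5% in the direction of MHs, and differences of at least 2-fold without overlap were as frequent in one direction (363 genes, 2.50%) as in the other (368 genes, 2.53%). The median difference over all genes was -0.06. The methods' t-test on the 5 samples gave an unadjusted p under 0.05 to 1865 probes higher in SHPCs and 2164 higher in MHs, and 0 of them passed after Benjamini-Hochberg adjustment. Of the 145 genes higher in SHPCs, 70 were on the lists for mitosis, S phase, D-type cyclins and CDK inhibitors or DNA repair and 4 on other lists, and of the 66 named genes on no list several are also known from mitosis, such as Ska1, Cenpw, Cep55 and Nek2.

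**Figure D1:**
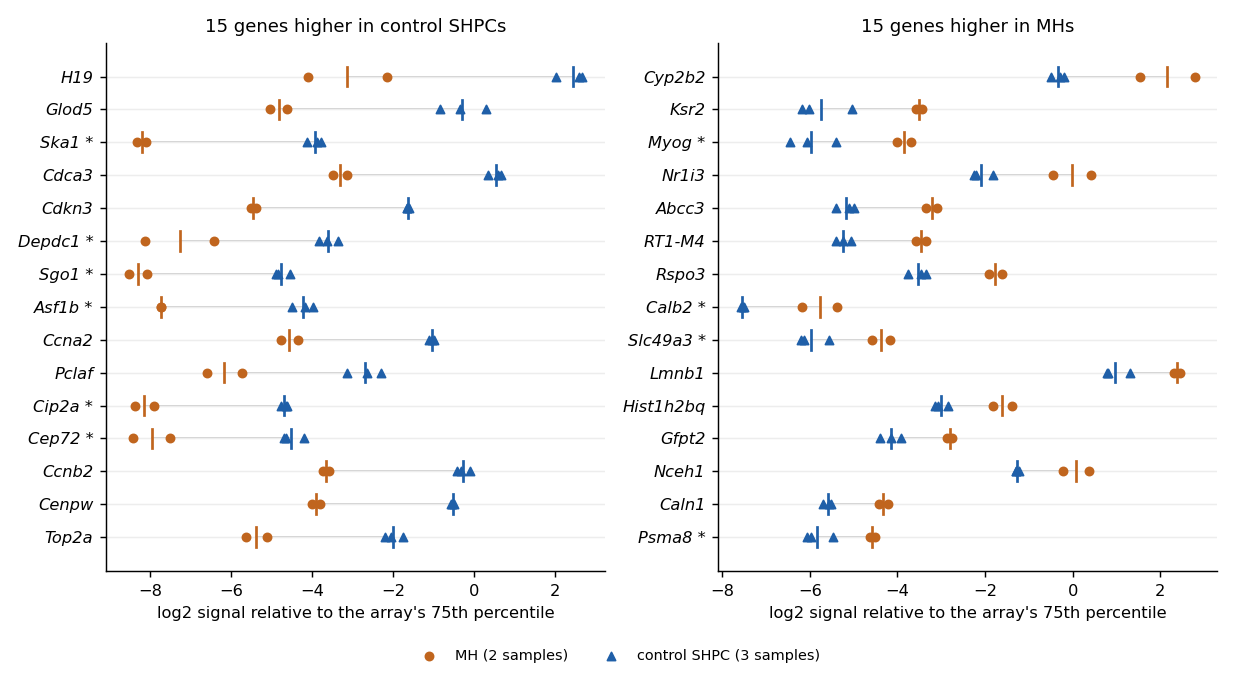
Log2 signal minus the array's 75th percentile (horizontal axis) of the 15 named genes with the largest called difference in each direction, 1 point per sample with vertical bars at the group means and an asterisk at genes not well above background in the lower group, 6 on the left and 4 on the right. In no gene shown do MHs and control SHPCs overlap, and the differences in measured signal run from 3.37 to 5.55 on the left and from 1.26 to 2.49 on the right, and those with an asterisk rest on a dim lower signal.

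Genes of mitosis and chromosome segregation formed the largest block. Of 62 tested members, 46 were higher in SHPCs and 1 was higher in MHs, with a median difference of 2.13 against -0.06 over all genes, and 58 of 62 differences were above 0. Mki67, the proliferation antigen Ki-67, was at -2.83 and -2.61 in MHs and at 0.14, 0.48 and -0.01 in SHPCs. Every SHPC sample was far above both MH samples, by 7.57-fold on average (difference 2.92, standard error 0.25, adjusted p = 0.00328 from limma), and all 4 probes of the gene passed. Cdk1, the kinase that drives entry into mitosis, was at -2.50 and -2.09 in MHs and at 0.83, 1.05 and 0.57 in SHPCs, which is 8.65-fold higher (adjusted p = 0.00429 from limma). Ccnb1 (cyclin B1) was at -5.32 and -5.03 in MHs and between -2.01 and -1.79 in SHPCs, 9.74-fold higher, and Ccna2 (cyclin A2) was at -4.77 and -4.36 in MHs and between -1.12 and -0.99 in SHPCs, 11.4-fold higher (adjusted p = 0.00247 from limma for both). Ccnb2 (cyclin B2), with 2 probes that both passed, was 10.4-fold higher (adjusted p = 0.00703 from limma).

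Later steps of division showed the same order of samples. Cdca3, which helps to degrade the inhibitor of mitotic entry, was at -3.48 and -3.14 in MHs and at 0.57, 0.66 and 0.34 in SHPCs and had the largest difference of the list (3.83, 14.2-fold, adjusted p = 0.00247 from limma). Top2a, the topoisomerase that untangles sister chromosomes, was at -5.63 and -5.12 in MHs and between -2.21 and -1.75 in SHPCs (10.3-fold, adjusted p = 0.00328 from limma). Ube2c, the ubiquitin-conjugating enzyme of the anaphase-promoting complex, was 7.56-fold higher, Cenpw, a part of the inner kinetochore, 10.4-fold and Plk1, a mitotic kinase, 6.09-fold. In all of these the lowest SHPC sample exceeded the highest MH sample. The members that did not pass included Aurkb, the kinase of the chromosomal passenger complex, at -0.01 and -0.24 in MHs and between -0.35 and -0.25 in SHPCs, and Foxm1, a transcription factor of mitotic genes, with a difference of 1.53 (adjusted p = 0.0516 from limma). The member higher in MHs was Lmnb1 (lamin B1, a protein of the nuclear envelope), at 2.32 and 2.44 in MHs and at 0.77, 0.81 and 1.32 in SHPCs, a difference of -1.42 (2.67-fold, adjusted p = 0.0447 from limma).

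For several of these genes the MH signal was not above background, so that a fold is a lower bound. It is the mean of the SHPC samples against the mean of, per MH array, the higher of the probe's own signal and the lowest signal of any probe well above background. Ska1, which couples kinetochores to microtubules, was at -8.09 and -8.33 in MHs, not well above background, and at -3.87, -3.78 and -4.13 in SHPCs, at least 4.92-fold higher (adjusted p = 0.00247 from limma). In the same way Depdc1 was at least 6.13-fold higher, Asf1b, a histone chaperone, at least 4.02-fold, Pbk, a mitotic kinase, at least 3.73-fold and Cep72, a centrosome protein, at least 3.28-fold. Cip2a, an inhibitor of the phosphatase PP2A, was at least 2.91-fold higher, Sgo1 (shugoshin, which protects sister chromatid cohesion) at least 2.75-fold and Bub1b at least 2.51-fold. These 8 entered the test through SHPC arrays alone, so their adjusted p from limma, between 0.00247 and 0.0341 on measured signals, describe them only. With probes well above background on every complete array, 41 of 50 tested mitosis genes were higher in SHPCs and 1 in MHs. Without MH replicate 1 the list had 21 of 62 genes higher in SHPCs. In all, 31 of the 212 probes higher in SHPCs were not above background in MHs.

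Genes of DNA replication and S phase were higher in 16 of 39 tested members and lower in none, with a median difference of 1.40, and 38 of 39 differences were above 0. The count was 1 without MH replicate 1, 5 without control SHPC replicate 1, 6 without either replicate 2, and 21 when control SHPC replicate 3 was left out. Rrm2, the regulated subunit of ribonucleotide reductase, was at -0.86 and -0.28 in MHs and at 2.57, 2.83 and 1.87 in SHPCs, 7.96-fold higher (adjusted p = 0.00721 from limma). Tk1, the thymidine kinase of dividing cells, was at -1.87 and -1.88 in MHs and at 0.03, 0.27 and 0.07 in SHPCs, 4-fold higher (adjusted p = 0.00697 from limma). In both genes all SHPC samples lay above all MH samples, and both probes of each passed. Rfc4, a subunit of the clamp loader, was 3.19-fold higher, Mcm6, a subunit of the replicative helicase that was above background in 1 of 2 MH samples, 6.95-fold and Ccne2 (cyclin E2) 8.31-fold (adjusted p = 0.00580, 0.0307 and 0.00900 from limma). Pcna, the sliding clamp, had a difference of 1.38 that missed the threshold (adjusted p = 0.0654 from limma), with MHs at -1.25 and -0.88 and SHPCs between -0.14 and 0.63. Tyms, which makes thymidylate, was between -2.35 and -1.62 in SHPCs and at -1.89 and -2.01 in MHs.

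Of 32 tested genes of crosslink and damage repair, 6 were higher in SHPCs (18.8%, against 0.998% of all genes) and none lower. The median difference was 0.32 (0.49 without MH replicate 2). The cause was not tested, and both groups share the drug. The count was 1 without MH replicate 1, 3 without MH replicate 2, 2 without control SHPC replicate 1 or 2 and 8 without control SHPC replicate 3. Rad51ap1, a factor of homologous recombination, was at -5.06 and -5.05 in MHs and at -3.15, -2.92 and -2.91 in SHPCs (4.17-fold, adjusted p = 0.00247 from limma). Its other probe did not pass. Ube2t, the ubiquitin-conjugating enzyme of the Fanconi pathway, was 6.90-fold higher, Bard1, the partner of Brca1 (above background in 1 of 2 MH samples), 6.66-fold, Exo1, a nuclease of end resection, 3.96-fold and Brca1 itself 2.65-fold (adjusted p between 0.00649 and 0.0378 from limma). Not past the test were, for example, Atm, the kinase that senses double-strand breaks, Ercc1, of nucleotide excision repair, and the nuclease Mre11, which differed by -0.20, 0.0029 and -0.11.

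Among D-type cyclins and CDK inhibitors, 2 of 16 tested genes passed, both higher in SHPCs. Cdkn3, a phosphatase of CDKs that is itself a gene of cycling cells, was at -5.50 and -5.40 in MHs and at -1.66, -1.66 and -1.61 in SHPCs, 14.0-fold higher (adjusted p = 0.00429 from limma). Cdkn2c (the inhibitor p18) was above background in 1 of 2 MH samples and was 5.52-fold higher on measured signals (adjusted p = 0.0494 from limma). Of the 2, 0 were called without MH replicate 1 and 1 was with any other sample left out. The inhibitors measured by qRT-PCR in the study did not pass. Cdkn1a (p21) was at 3.84 and 3.44 in MHs and at 2.61, 2.66 and 2.06 in SHPCs, without overlap (difference -1.20, adjusted p = 0.186 from limma). Cdkn1b (p27) differed by 0.42 and Cdkn2a (p16) by 0.08, the latter with overlapping groups. Ccnd1 (cyclin D1) was at 3.41 and 3.01 in MHs and between 2.32 and 2.42 in SHPCs (difference -0.86, adjusted p = 0.0921 from limma).

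Outside the cell cycle lists, H19, an imprinted RNA of fetal liver, had the largest difference of all genes in the direction of SHPCs. It was at -4.11 and -2.16 in MHs and at 2.02, 2.67 and 2.58 in SHPCs, and the SHPC samples were close together while the MH samples lay apart (difference 5.55, standard error 0.83, 47.0-fold, adjusted p = 0.0306 from limma). Glod5, a protein with a glyoxalase domain, was at -4.61 and -5.05 in MHs and between -0.86 and 0.29 in SHPCs (23.0-fold, adjusted p = 0.0186 from limma). Pclaf, a factor bound to PCNA, was 11.2-fold higher on measured signals and above background in 1 of 2 MH samples. Ggt1, the gamma-glutamyltransferase that fetal hepatocytes carry, was at -4.45 and -4.85 in MHs and between -2.16 and -2.07 in SHPCs (5.76-fold, adjusted p = 0.0341 from limma). The fetal and oncofetal list had a median of 0.07 (-0.02 without scaling, 0.20 without MH replicate 2). With H19, Ggt1 was 1 of 2 called genes among its 27 tested. Neither was called by limma with any 1 of the 5 samples left out, and the difference of H19 then ran from 4.58 to 6.53. Differences of the list lay on both sides of 0, with 12 of 27 differences below 0 and an unadjusted p under 0.05 in 10 members towards SHPCs and 7 towards MHs. Its summed signal, on the linear scale relative to the array's 75th percentile, was 53.5 and 50.2 in MHs and between 30.8 and 39.4 in SHPCs. Abcb1b, a multidrug exporter of the list chosen here after its values were seen, was at 5.27 and 5.14 in MHs and between 1.80 and 3.79 in SHPCs (difference -2.10, adjusted p = 0.181 from limma). Afp, alpha-fetoprotein, was at 2.27 and 2.20 in MHs and between 2.82 and 3.14 in SHPCs (difference 0.69, adjusted p = 0.0874 from limma). S100a4, a calcium-binding protein, was 1.78-fold higher (adjusted p = 0.0425 from limma), while its other probe differed by 0.03 and did not pass. It was the single called gene of 42 tested on the list of actin, tubulin and matrix-adhesion genes. Chosen after their values were seen, Slc39a5, a zinc transporter, was 7.27-fold higher and Slc25a4, the mitochondrial ADP/ATP carrier of muscle, 3.72-fold higher.

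**Figure D2:**
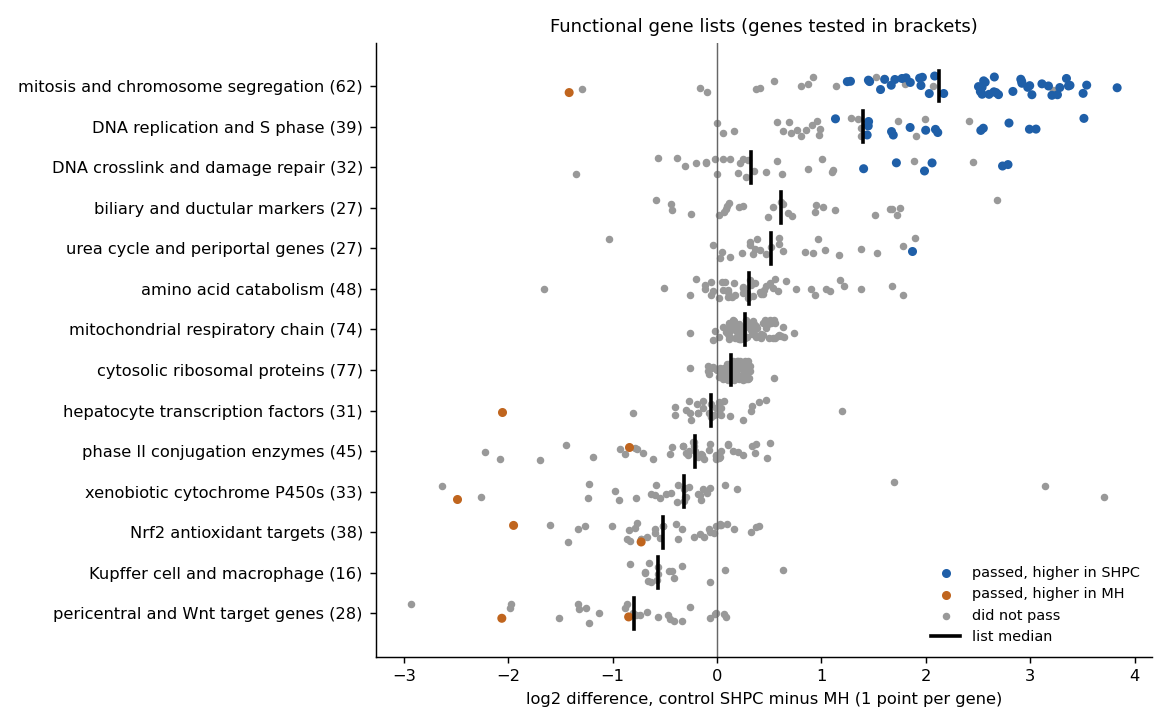
Log2 difference, control SHPC minus MH, of each tested gene (1 point per gene, horizontal axis) on 14 of the lists, with blue and orange for genes that passed in either direction, grey for the rest and a black bar at the list's median. The mitosis list has its median at 2.13 and S phase at 1.40, whereas pericentral and Wnt target genes have theirs at -0.79.

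In the other direction, MHs were higher in 33 genes, of which 1 was on a cell cycle list, 6 were on other lists, and 21 with a gene name and 5 with a placeholder symbol were on none. Cyp2b2, a phenobarbital-inducible cytochrome P450, had the largest difference of the named genes that passed. It was at 2.79 and 1.53 in MHs and at -0.29, -0.20 and -0.50 in SHPCs (difference -2.49, standard error 0.37, 5.61-fold, adjusted p = 0.0306 from limma). The groups did not overlap, although the MH samples differed from each other by more than the SHPC samples did. Over 21 alternatives the difference of Cyp2b2 ran from -3.12 to -1.86. Nr1i3, the constitutive androstane receptor that induces Cyp2b genes, was at 0.41 and -0.46 in MHs and at -2.20, -1.81 and -2.24 in SHPCs (4.17-fold, adjusted p = 0.0494 from limma), and both of its probes passed. It was the single called gene of 31 tested transcription factors of hepatocytes. Abcc3, a basolateral exporter of conjugates, was at -3.09 and -3.34 in MHs and between -5.40 and -4.99 in SHPCs (3.86-fold, adjusted p = 0.0377 from limma).

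Cyp2b2 was the single called gene of 33 tested xenobiotic cytochrome P450s, and the list had a median of -0.32 (-0.51 without MH replicate 2). Unadjusted p under 0.05 were given to 13 of its members in the direction of MHs, with a background of 12.5%, and to 3 in the direction of SHPCs, with a background of 7.72%. The list was not uniform. Cyp1a2 was at 5.23 and 4.92 in MHs and at 4.28, 4.26 and 4.37 in SHPCs (difference -0.77, adjusted p = 0.0684 from limma), and Cyp2e1, which oxidises ethanol, differed by -1.23 (adjusted p = 0.126 from limma). Against these, Cyp3a2, a male-predominant enzyme of adult rats, was at -2.75 or below in MHs and at 0.56, 0.79 and 1.15 in SHPCs (difference 3.71, adjusted p = 0.149 from limma). With the 5 compared arrays alone Cyp3a2 passed (adjusted p = 0.00407 from limma) and Cyp2b2 did not (adjusted p = 0.0576 from limma), so the single call of this list turned direction without the BM-MC arrays. Cyp2b2 passed under 12 of 21 alternatives. Cyp1a1 was not above background in MHs and had an adjusted p = 0.139 from limma. Cyp2b1, the other phenobarbital-inducible gene measured in the study, had no probe matched to it. The number of called genes was 1 of 45 for phase II enzymes, 1 of 34 for transporters and 0 of 21 for P450s of bile acids and steroids (limma, unadjusted p under 0.05 in 5). The phase II gene was Gstm1, a glutathione transferase, at 4.36 and 3.96 in MHs and at 3.32, 3.32 and 3.30 in SHPCs (1.80-fold, adjusted p = 0.0480 from limma), with 1 of its 2 probes called. In the bile acid list Cyp7a1, the rate-limiting enzyme of bile acid synthesis, was at 0.43 and -0.08 in MHs and between -1.98 and -1.51 in SHPCs (difference -1.99, adjusted p = 0.179 from limma).

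Of 38 tested targets of Nrf2, the transcription factor of the antioxidant response, 2 were higher in MHs and none in SHPCs, the median was -0.52, and 30 of 38 differences were below 0. Srxn1, which reactivates oxidised peroxiredoxins, was at 1.85 and 1.77 in MHs and at 0.99, 1.19 and 1.07 in SHPCs (1.66-fold, adjusted p = 0.0385 from limma). Every MH sample was above every SHPC sample and the samples of each group were close. The other was Abcc3. Not past the test were Nqo1, a quinone reductase (-0.86, adjusted p = 0.175 from limma), Gpx2, a glutathione peroxidase (-1.43, adjusted p = 0.147 from limma), and Hmox1, heme oxygenase (-0.68, adjusted p = 0.274 from limma), whereas Gclc (-0.12) and Txnrd1 (0.16) were close to equal. The promoter of Srxn1 (plus strand, chr3:161064562-161064811, 250 bases before the start, RefSeq, GRCr8) is shown with capitals at each TGANNNNGC on either strand, the core of the antioxidant response element. It holds 2, and 58.1% of 31 Nrf2 targets with a promoter held at least 1, against 36.6% of tested genes, 34.7% of all promoters of this length and 54.8% of the S phase list, so that the share was not particular to Nrf2 targets.
Srxn1: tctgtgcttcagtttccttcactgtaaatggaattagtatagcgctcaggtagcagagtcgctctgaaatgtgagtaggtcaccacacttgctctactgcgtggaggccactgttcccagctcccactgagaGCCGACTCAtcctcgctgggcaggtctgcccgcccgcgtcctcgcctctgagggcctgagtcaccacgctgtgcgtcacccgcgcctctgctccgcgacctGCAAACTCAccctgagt

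Among the other named genes higher in MHs, Rspo3, an R-spondin that strengthens Wnt signals and is made by central vein endothelium, was at -1.92 and -1.61 in MHs and at -3.46, -3.76 and -3.35 in SHPCs (3.39-fold, adjusted p = 0.0237 from limma). RT1-M4, a class I histocompatibility gene of a polymorphic family whose members share sequence, was 3.43-fold higher (adjusted p = 0.0114 from limma). Gfpt2, of the hexosamine pathway, was 2.55-fold higher, Nceh1, a cholesteryl ester hydrolase, 2.54-fold, Hist1h2bq, a histone gene with near-identical copies, 2.66-fold, Ksr2, a scaffold of kinase signalling that was above background in 1 of 2 marked SHPC samples, 4.72-fold and Caln1, a calcium-binding protein, 2.42-fold (adjusted p between 0.0121 and 0.0453 from limma). In SHPCs 4 more were not well above background. These are the muscle transcription factor Myog (at least 3.94-fold higher in MHs), Slc49a3 (at least 2.85-fold), the proteasome subunit Psma8 (at least 2.38-fold) and Calb2 (at least 1.06-fold), and their adjusted p from limma, between 0.0280 and 0.0433 on measured signals, describe them only, since no control SHPC array let them into the test. The difference of Calb2 ran from -2.16 to -0.13 over the alternatives, with the smallest where dim spots were set to a floor (adjusted p = 0.783 from limma).

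Zonation genes lay on opposite sides. Of 28 tested pericentral and Wnt target genes, 2 were higher in MHs (Nr1i3 and Gstm1), none in SHPCs, and the median was -0.79, with 26 of 28 differences below 0 and 20 unadjusted p under 0.05 in the direction of MHs. Of 27 tested urea cycle and periportal genes, 1 was higher in SHPCs, none in MHs, and the median was 0.52, with 25 of 27 differences above 0 and 14 unadjusted p under 0.05 in the direction of SHPCs. Against the background of 12.5% and 7.72%, these are 71.4% and 51.9% of the members. The called periportal gene was Aldh1b1, a mitochondrial aldehyde dehydrogenase, at 1.36 and 0.86 in MHs and at 2.95, 2.89 and 3.11 in SHPCs (3.66-fold, adjusted p = 0.0104 from limma).

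Single members were short of the threshold. Slc1a2, the glutamate transporter of the innermost pericentral cells, was at -1.09 and -2.12 in MHs and at -4.55, -4.30 and -4.77 in SHPCs, 7.64-fold apart without overlap (adjusted p = 0.114 from limma). Glul, glutamine synthetase of the same cells, was at 3.13 and 2.99 in MHs and at 2.18, 2.19 and 1.41 in SHPCs (difference -1.13, adjusted p = 0.131 from limma). Axin2, a direct Wnt target, differed by -0.74 (adjusted p = 0.254 from limma). On the periportal side Sds, serine dehydratase, was at 2.54 and 1.90 in MHs and at 3.64, 3.86 and 4.49 in SHPCs (difference 1.78, adjusted p = 0.0807 from limma), and Amdhd1, of histidine breakdown, differed by 1.89 (adjusted p = 0.0837 from limma). Cps1, the entry enzyme of the urea cycle, was at 0.07 and 0.40 in MHs and at 1.02, 0.66 and 1.77 in SHPCs (difference 0.92, adjusted p = 0.229 from limma). The exceptions were Pigr, the receptor that carries immunoglobulin A into bile, at -1.03, and Ass1, whose groups overlapped. Control SHPC replicate 3 was the highest of the 5 compared samples in Sds, Amdhd1, Cps1 and Agxt.

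**Figure D3:**
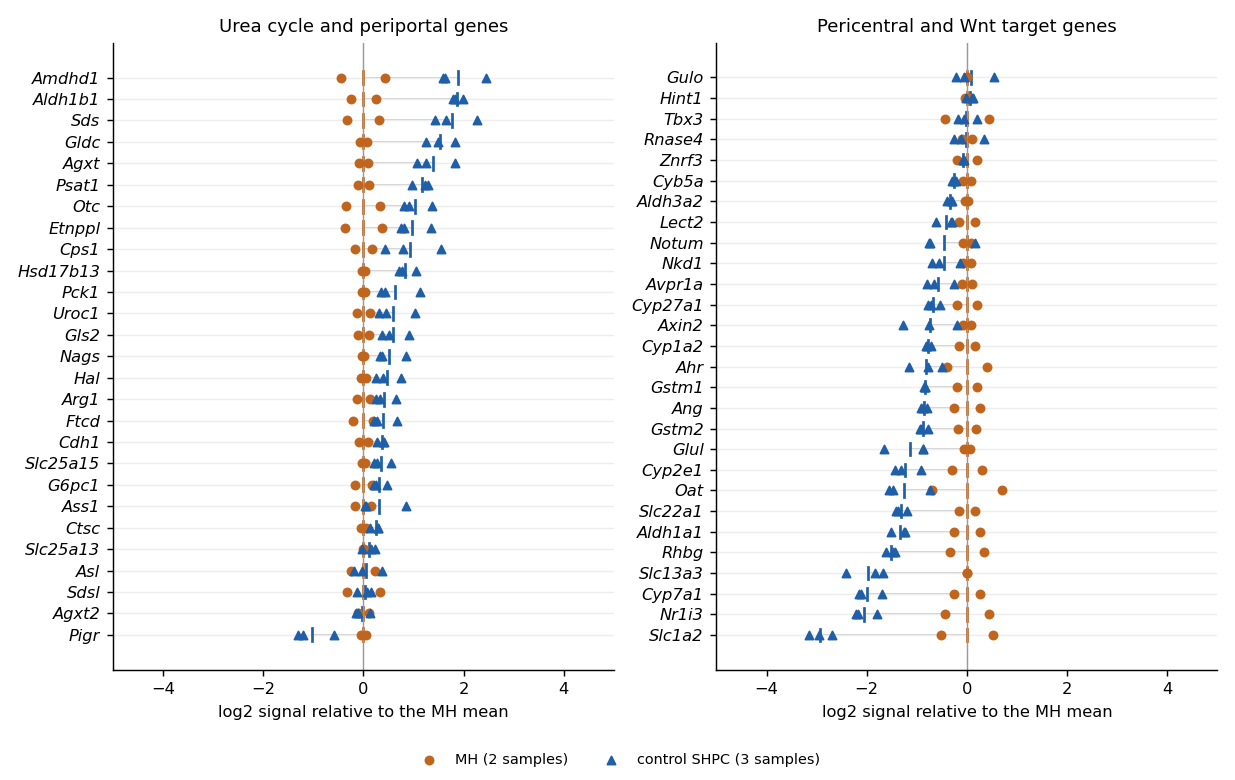
Log2 signal of every tested gene of the periportal (left) and pericentral (right) list relative to its MH mean (horizontal axis), 1 point per sample with vertical bars at group means. The SHPC means are above the MH mean in 25 of 27 genes on the left and below it in 26 of 28 on the right.

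**Figure D4:**
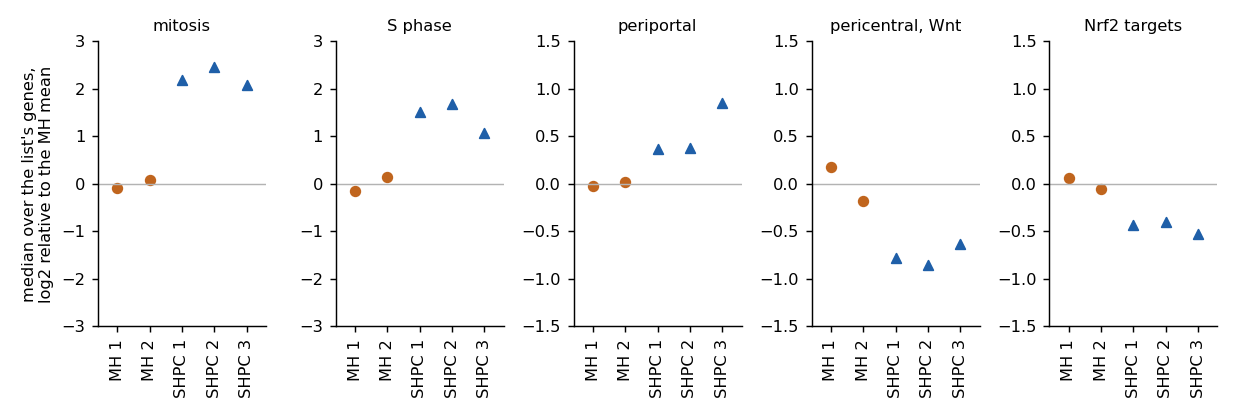
Median over the genes of 5 lists of the log2 signal relative to the MH mean (vertical axis) in each MH (orange circles) and control SHPC sample (blue triangles); the vertical scale is wider for the first 2 panels. SHPC samples lie between 2.08 and 2.46 for mitosis, between 1.06 and 1.68 for S phase, and below both MH samples for pericentral genes and Nrf2 targets.

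Broad metabolic lists had small median differences. Of 74 tested subunits of the respiratory chain none passed, but 71 differences were above 0, and the median was 0.27. In the direction of SHPCs, 32 had an unadjusted p under 0.05 from limma (43.2%, against 7.72% of all genes). Uqcrh, a subunit of complex III, was at 3.90 and 3.88 in MHs and at 4.47, 4.43 and 4.52 in SHPCs (difference 0.58, adjusted p = 0.0811 from limma). Cytosolic ribosomal proteins had a median of 0.14 over 77 genes and 69 differences above 0, with 0 called by limma and an unadjusted p under 0.05 in 3. Without any scaling of the arrays these medians were 0.18 and 0.05. Of 48 genes of amino acid catabolism limma called none and gave 14 an unadjusted p under 0.05, and the median was 0.31 (0.11 without control SHPC replicate 3 and 0.15 without MH replicate 2), with Csad, which makes taurine, at -1.65 (adjusted p = 0.0533 from limma). Also with no called gene were acute-phase proteins, coagulation and complement, fatty acid oxidation, cholesterol biosynthesis, lipogenesis, glycolysis, immediate early genes, the unfolded protein response, heat shock proteins, the growth hormone axis, growth factor and cytokine receptors, the clock, interferon-stimulated genes, antigen presentation, chemokines and the Myc list, and their medians lay between -0.32 and 0.15. In each of these lists limma gave an unadjusted p under 0.05 to between 1 and 12 members, in either direction. The members of lowest p in these lists included A2m, the acute-phase protease inhibitor alpha-2-macroglobulin (3.74, adjusted p = 0.101 from limma), Nr4a1, an immediate early nuclear receptor (1.70, adjusted p = 0.0507 from limma), A1bg, a plasma protein controlled by growth hormone (2.29, adjusted p = 0.0586 from limma), and Hmgcs1, of cholesterol synthesis (-0.62, adjusted p = 0.0644 from limma).

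Other genes measured by qRT-PCR in the study did not pass in control SHPCs against MHs. The increases that the study reported for Jun, Kit and Egfr were between livers with and without BM-MC transplantation, which were not compared here. Between control SHPCs and MHs, Jun, an immediate early transcription factor, differed by -0.31 and Casp9, an initiator caspase, by 0.06. Cebpa (a hepatocyte transcription factor) differed by -0.14, and the receptors Egfr, Kit and Il6r by -0.11, -0.09 and -0.04. Groups overlapped in Jun, Casp9, Cebpa, Egfr, Kit and Il6r. Il17rb, a receptor subunit for interleukin-17 family ligands, was at -5.69 and -5.39 in MHs and at -7.44, -6.06 and -2.47 in SHPCs, and it was well above background in 1 of 3 SHPC samples, that of the highest signal, so that the lower signals are not read as levels.

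Markers of other cells moved with the groups to some extent, and in captured tissue fewer cells of a type and less RNA per cell cannot be told apart. Of 16 markers of Kupffer cells and macrophages none passed, and 2 differences were above 0 (up to 0.63). In the direction of MHs, 8 had an unadjusted p under 0.05 from limma (50%, against 12.5% of all genes). The 16 markers had a median of -0.56 (-0.24 without MH replicate 2). Their summed signal, on the linear scale relative to the array's 75th percentile, was 102 and 105 in MHs and between 53.8 and 77.0 in SHPCs, without overlap. Clec4f, Cd68 and C1qb, of this list, were well above background in both groups. Cd68 and C1qb, its members of lowest p, differed by -0.84 and -0.69. The part of these cells in the genes higher in MHs was not tested. The biliary and ductular list had a median of 0.61 with 0 of 27 called by limma, and the 7 tested cholangiocyte markers 0.95 with 0 called. Unadjusted p under 0.05 from limma were given to 11 and 3 members, all towards SHPCs (40.7% and 42.9%, against 7.72% of all genes). Many of these markers were dim. With probes well above background on every complete array, 19 biliary genes had a median of 0.25 and 2 cholangiocyte markers 0.31. Without MH replicate 2 the biliary median was 0.39, and without control SHPC replicate 2 the cholangiocyte median was 0.63. The summed signal of the 7 markers was 0.332 and 0.384 in MHs and between 0.485 and 0.523 in SHPCs. That of the 27 biliary genes was 64.8 and 70.6 in MHs and between 62.1 and 77.5 in SHPCs, with overlap. Krt19, the keratin of bile ducts, was above background in 1 of 2 MH samples, at -6.34 and -4.88 in MHs and between -4.41 and -3.36 in SHPCs, whereas Sox9 and Epcam overlapped, and Spp1 and Sctr were not among the tested genes.

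Markers of blood cells are given beside the cell cycle genes, since such cells can divide. Of 8 tested lymphocyte markers limma called none, with an unadjusted p under 0.05 in 2, and the summed signal ran from 3.43 to 3.96 in MHs and from 3.63 to 4.28 in SHPCs, with overlap through control SHPC replicate 3 alone. The median of these markers was 0.12, and without that sample it was 0.44, with all 8 differences above 0. It was 0.25 without MH replicate 2 (8 above 0) and -0.02 without MH replicate 1 (3 above 0). Without control SHPC replicate 1 or 2 it was 0.03 and 0.0049, with 4 above 0 each. Cd3g and Cd3d, of T cells, differed by 0.89 and 0.42 (adjusted p = 0.0824 and 0.140 from limma), and Cd79a and Ms4a1 of B cells were not among the tested genes. Erythroid markers summed to 19.9 and 40.0 in MHs and to 33.4, 32.2 and 108 in SHPCs, and the high value is that of control SHPC replicate 3. Only 3 of 12 granulocyte markers were tested, and they summed to 0.394 and 1.51 in MHs and between 1.13 and 1.57 in SHPCs. Sinusoidal endothelial markers summed to 21.1 and 25.3 in MHs and between 19.9 and 21.3 in SHPCs. Stellate cell markers summed to 9.11 and 9.61 in MHs and between 7.79 and 8.46 in SHPCs, with 1 of 13 called, the pericyte gene Rgs5 (2.13-fold higher in MHs, adjusted p = 0.0341 from limma). The median of this list was 0.08, with 8 of 13 differences above 0 and an unadjusted p under 0.05 in 4 members towards SHPCs and 3 towards MHs. The part of these cells in the cell cycle genes was not tested.

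Since all MH arrays lay in the first set of arrays on the slide, the comparison was repeated within that set, with 2 samples a group. It called 234 probes higher in SHPCs and 181 higher in MHs, and the mitosis list had 47 genes higher in SHPCs and 1 in MHs, with a median of 2.32. The pericentral median was -0.84 and the periportal 0.38. Of the 145 genes higher in SHPCs 126 were also called within the set, and of the 33 higher in MHs 16 were. With each of the 5 samples left out in turn, 31 of the 145 genes were called every time, among them Mki67, Ccnb1, Ccna2, Top2a, Plk1 and Cdca3, whereas none of the 33 genes higher in MHs was. Leaving out MH replicate 1 gave the fewest probes higher in SHPCs, 49 with 6 in MHs, and leaving out control SHPC replicate 1 or 2 the fewest higher in MHs, 4 each. Without MH replicate 1, 34 of the 145 and none of the 33 genes were still called, although all of both kept their direction.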

How the data were processed

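Total RNA of cells captured by laser microdissection was labelled with Cy3 and hybridised to 1-colour Agilent SurePrint G3 rat arrays, and the authors deposited scanner output together with a table of processed intensity, from which Agilent Feature Extraction (10.7 in the submitters' processing notes) had subtracted background, with no scaling between arrays. All 8 arrays lay on 1 slide read in 1 scan. The scanner output of control SHPC replicate 2 used here covers 20903 of 62976 features, and for this array the table supplied the signals and the filter used no marks. Outlier spots were left out, spots of a probe averaged and each array set relative to its 75th percentile on the log2 scale. A probe entered the test if 3 or more of the 7 completely marked arrays had it well above background, and limma was run (3.58.1, R 4.3.3, lmFit and eBayes, no trend) in a fit of 3 group means over all 8 arrays, with Benjamini-Hochberg adjustment over all probes and a threshold of 0.05. Differences are coded as control SHPC minus MH. This fit takes the spread from all 3 groups, whereas the methods' t-test uses the compared samples alone and was kept as an alternative.

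Of 45598 probes, 21102 were named through an accession and 6691 and 424 through a current symbol and a synonym in RefSeq, 7635 kept the name in the file and 9746 had none. A gene is shown by its brightest tested probe, by the mean over all 8 arrays. Named genes are the 15 of largest difference per direction that passed without overlap and carry no placeholder symbol, up to 4 passing members of each list of lowest p (up to 2 where none passed) and the qRT-PCR genes of the study, of which some, with 1 of the lists, are not reported here; genes named beyond this rule were chosen after their values were seen. The 35 functional lists, 8 marker lists, samples and tests were chosen with earlier results of these data known, so lists are described by counts and medians and carry no test. The script was tested on simulated data. Replicate numbers come from the titles, and no source used here says whether they pair the samples. Deviations from the group means correlated at 0.051 for number 1 and -0.043 for number 2. With 2 MH samples the MH deviations mirror each other, so these values cannot show whether same-numbered samples share a liver. Alternatives covered scaling, filters, background correction, array position, replicate block, intensity trend, array weights, the methods' t-test and each sample left out.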

Additional observations from a re-analysis of the deposited data

How the results depend on the processing

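The 212 probes higher in control SHPCs and the 50 higher in MHs stayed within 1.5 times of these counts under scaling to the median, quantile normalization, no scaling, the filter on MH and control SHPC arrays, outlier spots kept and 1 probe per gene symbol. The count in MHs alone moved, to 79 with probes above background on every complete array, 84 with dim spots set to a floor, 76 with the 5 arrays alone, 181 within the first set of arrays and 98 with the set of arrays as a block. Of the 33 genes higher in MHs, 25, 29, 11, 16 and 16 were still called in these fits, 1 with no filter and 8 with normexp. Both fell with no filter on dim probes (124 and 12) and with normexp and quantile normalization on the 7 complete arrays (114 and 10), and both were larger with an intensity trend (355 and 204) or array weights (326 and 164). The methods' t-test called 1865 and 2164 unadjusted and 0 and 0 after adjustment. Leaving out each sample in turn gave 49 to 191 and 4 to 98 probes, and a lone MH sample was then assumed to vary like the other groups. The cause of these changes was not tested.

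With the replicate number as a block, 130 probes were higher in SHPCs and 29 in MHs, and 89 and 3 of the called genes were still called. Whether same-numbered samples are paired is not known. The block also removes degrees of freedom, and its counts say little about the size of an effect.

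Of 2715 values of the 119 named genes under 23 alternatives, 22 in 7 genes, none of them called, changed sign. Casp9 became -0.032 without scaling and -0.065 with normexp, and ran from -0.26 to 0.37 with 1 sample left out. Cdkn2a became -0.0083 without scaling and ran from -0.25 to 0.41. Kit became 0.035 with normexp and ran from -0.59 to 0.40. Il6r became 0.012 with quantile normalization, 0.014 with array weights and 0.032 within the first set or with the set as a block, and ran from -0.18 to 0.10. Il17rb became -1.21 within the first set or with the set as a block, -0.19 with the replicate block and -0.81 with array weights, and ran from -1.21 to 1.28, on signals mostly not above background in SHPCs. Retnlg and S100a9, markers of granulocytes, ran from -0.13 and -0.22 without MH replicate 1 to 1.40 and 1.87 without MH replicate 2.

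The mitosis list had between 21 and 51 genes higher in SHPCs over 21 alternatives and a median between 1.18 and 2.32, the S phase list between 1 and 27 and a median between 1.01 and 1.60, and the repair list between 1 and 9. Between 0 and 9 pericentral genes and 0 and 8 Nrf2 targets were higher in MHs. The pericentral median stayed between -0.99 and -0.58, the periportal between 0.37 and 0.61 and Nrf2 targets between -0.65 and -0.38. Without scaling, the median of all genes moved from -0.06 to -0.14. With 2 MH samples and many dim cell cycle probes, small differences and the size of the largest ones are poorly fixed.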
